A study of Mus musculus with 26 samples.

Results

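The 9 genes described here encode the contractile machinery by which smooth muscle is recognised: Acta2, Tagln, Cnn1, Myh11, Myl9, Mylk, Tpm1, Tpm2 and Cald1. They were taken by name from a deposited expression table of 16718 mouse genes, and all 9 were found in it. The table covers 26 RNA-seq libraries from a study of chemical induction of pluripotency, in which mouse embryonic fibroblasts (MEF) are turned into induced pluripotent stem cells (CiPSC) with small molecules and no introduced genes. One library came from MEF. An "all chemical" course gave 7 libraries, on days 6, 12, 18, 22, 30, 36 and 40. A course labelled "minus Brdu" left out BrdU, a thymidine analogue that is built into replicating DNA, and gave 7 libraries on the same days. A course labelled "minus Chir" left out Chir, in chemical reprogramming the short name of an inhibitor of glycogen synthase kinase that activates Wnt signalling, and gave 5 libraries on days 6 to 30. There were 6 CiPSC libraries. The labels name no strain, sex or age for the fibroblasts, list none of the other chemicals that the 3 courses share, and do not say whether the CiPSC libraries are separate lines.

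In smooth muscle, force is made where myosin II pulls on actin filaments. The motor is switched on when myosin light chain kinase phosphorylates the regulatory light chain, and calponin, caldesmon and tropomyosin sit on the actin filament and regulate its access to myosin. The genes for these proteins are classic targets of serum response factor (SRF), which binds a sequence called the CArG box together with myocardin-family coactivators, and TGF-beta is a well known inducer of them. Cultured fibroblasts also make several of these proteins, above all when they turn into myofibroblasts, the contractile cells of wounds. The presence of these transcripts therefore does not by itself mark a smooth muscle cell.

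Each library was summarised by the authors on a common scale, so a value is a normalised level without a physical unit and the sequencing depth is unknown. Every library has the same highest value, 21988, which is shared by exactly 10 genes. Acta2 stood at that ceiling in MEF. Its own level there is not resolved from those of the other genes at the ceiling, so each fall of Acta2 from MEF is approximate. No other member reached the ceiling in any library. Below it, high values come in steps of 10 genes, the next running from 11346 to 11324, and Tpm1 in MEF (11338) lies in that step. Differences between courses are given as differences in log2(value + 1) with their standard errors (SE). The p-values come from limma, adjusted by the Benjamini-Hochberg method over all genes tested, and a gene is called at an adjusted p below 0.05. Each course has 1 library a day, so the days stand in for replicates and a test asks whether 2 courses differed across days.

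All 9 genes were higher in MEF than in CiPSC, and the 3 courses differed in how far their levels lay below MEF. On days 6 to 22 every member read below MEF in every course. On days 30 to 40, 4 members were higher again than on days 12 to 22 in the all chemical course (6.81% of all genes were) and 7 in the minus Brdu course (8.99% of all genes), a comparison chosen after the values had been seen. The 4 became 1 when any one of days 18, 22, 30, 36 or 40 was left out. On day 40 without BrdU, Tagln, Tpm2 and Cald1 stood at 71.7%, 86.6% and 84.8% of their MEF levels, and Mylk at 234% of its own. In the all chemical course on that day the same 4 genes stood at 3.09%, 6.06%, 19.2% and 15% of MEF. The other members were further below MEF on day 40 without BrdU. Cnn1 stood at 7.06%, Myh11 at 25.5%, Acta2 at 37.8% of the ceiling value, Tpm1 at 48.8% and Myl9 at 66.6%. For Tpm1 and Myl9 the all chemical course stood at 32.1% and 44.3% on that day. In bulk RNA, fewer cells of a type and less RNA per cell cannot be told apart.

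**Figure D1:**
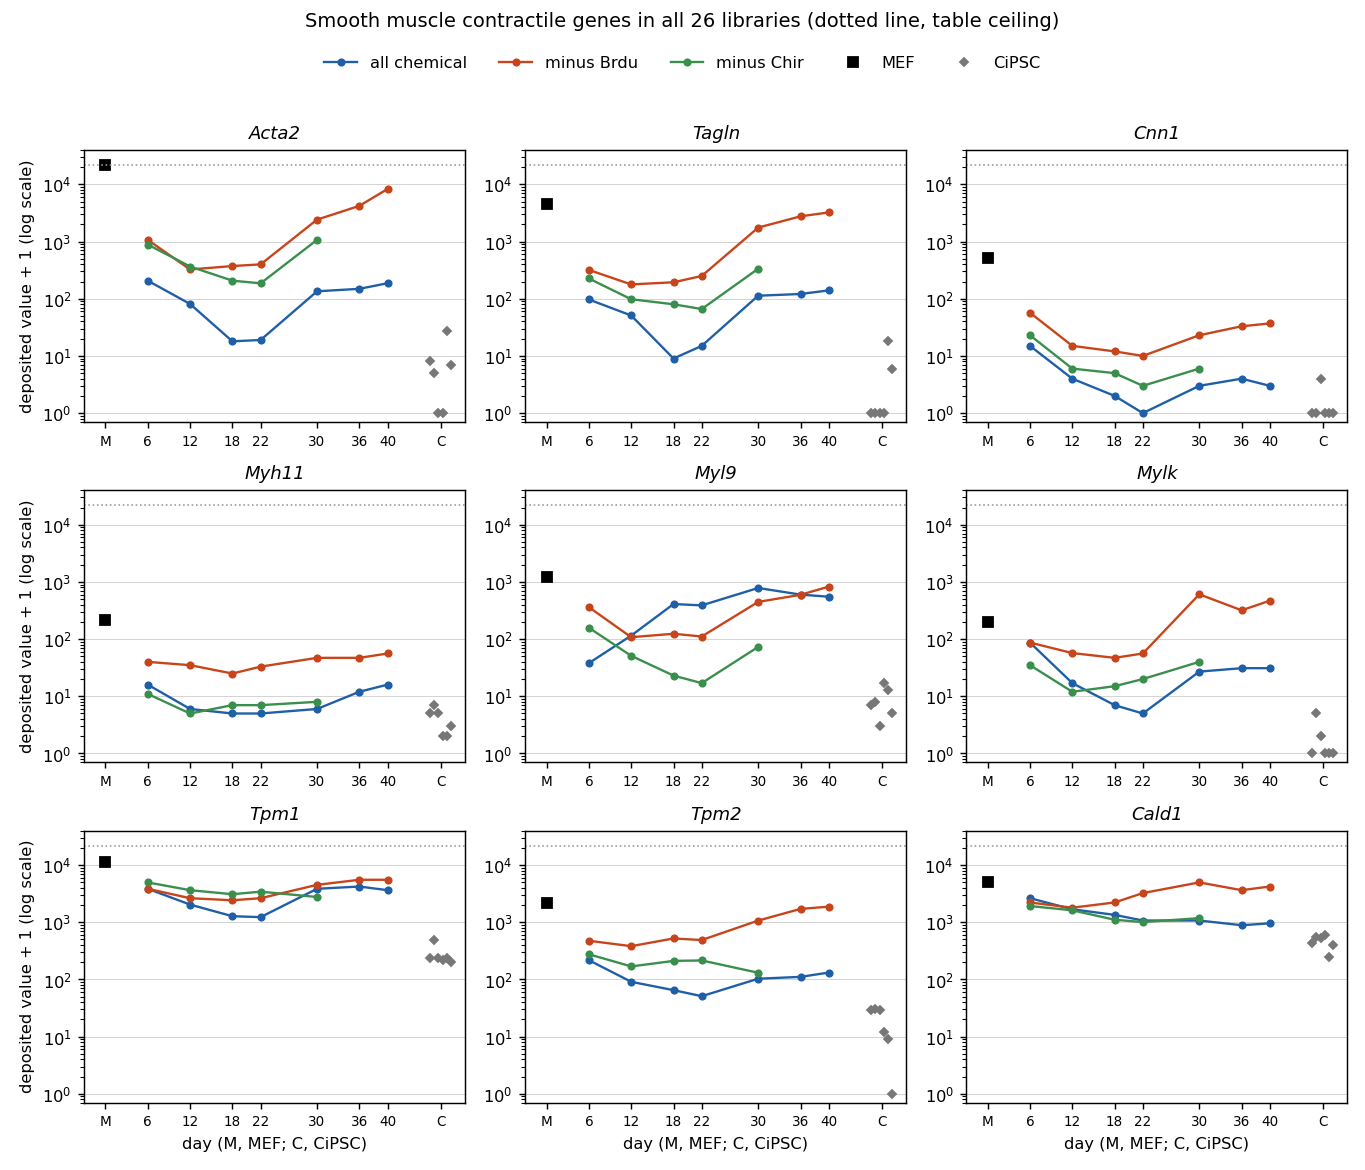
Deposited value plus 1 (log axis) of the 9 members by day, for MEF (square, M), the all chemical, minus Brdu and minus Chir courses (lines, 1 library a day) and the 6 CiPSC libraries (diamonds, C). The dotted line is the ceiling of the table, which only Acta2 in MEF reaches, and the minus Brdu line ends above the all chemical line in each panel.

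Smooth muscle actin, Acta2, is the thin-filament actin of smooth muscle and of myofibroblasts. In mm10 the gene lies on the minus strand at chr19:34241090-34255590. It was at the ceiling value of 21988 in MEF. In the all chemical course it read 206, 80, 17, 18, 134, 148 and 186 on days 6, 12, 18, 22, 30, 36 and 40. In the minus Brdu course it read 1070, 324, 372, 398, 2419, 4208 and 8314 on those days. The lowest minus Brdu value lies above the highest all chemical value, so these courses did not overlap for Acta2. In the minus Chir course it read 885, 365, 206, 185 and 1070 on days 6, 12, 18, 22 and 30, above the all chemical library on each of those 5 days. The 6 CiPSC libraries gave 7, 4, 0, 0, 26 and 6.

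Sequence upstream of Acta2 and Myl9 is shown because these are the only member promoters with a CArG box or a near match to one in the window searched. RefSeq promoter entries (GRCm38.p6) were found for 7 of the 9 members, Tagln and Myh11 having none, and the 250 bases before each start were searched on both strands. Capitals mark an exact CArG box, or a CArG-like match in which 1 base of the central A and T run is a G or C. In GENCODE M21 the first exon of Acta2 begins upstream of the RefSeq start and covers both of its matches, so for Acta2 only the 30 bases around each match are given. For Myl9 the 206 bases before its first GENCODE exon are given.

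Acta2 upper match, chr19:34255438-34255467, minus strand: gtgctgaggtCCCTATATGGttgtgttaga

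Acta2 lower match, chr19:34255388-34255417, minus strand: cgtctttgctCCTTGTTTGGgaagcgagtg

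Myl9, chr2:156775214-156775419, plus strand: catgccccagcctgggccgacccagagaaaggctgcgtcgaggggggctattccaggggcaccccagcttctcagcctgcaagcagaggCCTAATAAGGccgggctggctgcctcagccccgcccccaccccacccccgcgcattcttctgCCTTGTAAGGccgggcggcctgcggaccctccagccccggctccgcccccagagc

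Acta2 has 2 CArG-like matches, starting 84 and 34 bases upstream of the RefSeq start, and Myl9 has 1 exact box 161 bases upstream and 1 CArG-like match 99 bases upstream. Of 32851 mouse promoter entries searched in the same way, 1.47% hold an exact box and 7.24% a CArG-like match. A second motif of muscle genes, MCAT (CATTCC, either strand), lies upstream of Acta2, Cald1, Mylk and Tpm1 and in 12.6% of all entries. Cnn1 and Tpm2 hold none of these letters within 250 bases. Such matches are descriptions of sequence, not measured binding.

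Tagln encodes transgelin (SM22), an actin-binding protein of smooth muscle, at chr9:45929619-45936058 on the minus strand. It stood at 4504 in MEF. The all chemical course gave 96, 50, 8, 14, 112, 120 and 139, and the minus Brdu course 318, 177, 193, 249, 1753, 2760 and 3230. These courses did not overlap, and minus Brdu was 3.31-fold higher on day 6 and 23.2-fold higher on day 40. The minus Chir course lay between them on all 5 of its days, at 225, 97, 79, 65 and 334. CiPSC libraries read 0 in 4 cases and 17 and 5 in the others. An antisense gene, Gm48529, overlaps 62.4% of the exon bases of Tagln, and the sources used here do not say whether counting used the strand, so its reads cannot be told apart from those of Tagln.

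Cnn1 encodes calponin, which binds actin and slows the myosin motor. Its gene is at chr9:22099216-22109630 on the plus strand. It read 510 in MEF and 14, 3, 1, 0, 2, 3 and 2 in the all chemical course. Without BrdU it read 56, 14, 11, 9, 22, 32 and 36, higher on each of the 7 days but overlapping the other course through its day 6 library. Without Chir it read 22, 5, 4, 2 and 5. On day 40 of the minus Brdu course it stood at 7.06% of MEF, where Tagln stood at 71.7%. CiPSC libraries gave 3 once and 0 in the other 5.

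Myh11 is the smooth muscle myosin heavy chain, of these genes the one most restricted to smooth muscle, at chr16:14194535-14291372 on the minus strand. It read 216 in MEF, then 15, 5, 4, 4, 5, 11 and 15 in the all chemical course. The minus Brdu libraries gave 39, 34, 24, 32, 46, 46 and 55, each above every all chemical library. The minus Chir libraries gave 10, 4, 6, 6 and 7, within the all chemical range. Its level without BrdU reached 25.5% of MEF on day 40, and CiPSC libraries lay between 1 and 6.

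Myl9, the regulatory light chain that the kinase phosphorylates, had a profile of its own. Its gene is at chr2:156775420-156781658 on the plus strand, and MEF gave 1241. In the all chemical course it was lowest on day 6 and highest on day 30, reading 37, 114, 409, 388, 782, 599 and 550. In the minus Brdu course it was lowest on days 12 to 22, reading 361, 107, 123, 110, 446, 594 and 826. The minus Brdu library was 9.76-fold above the all chemical library on day 6, then 0.301 and 0.284 times its level on days 18 and 22. In the minus Chir course it read 157, 50, 22, 16 and 72. CiPSC libraries gave 2 to 16.

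Mylk encodes myosin light chain kinase, at chr16:34745210-35002420 on the plus strand. MEF gave 200. The all chemical course read 86, 16, 6, 4, 26, 30 and 30, and the minus Brdu course 86, 56, 46, 55, 606, 318 and 468. The 2 courses were equal on day 6 and separated later, and in the 3 late minus Brdu libraries Mylk lay above its MEF level. No other member exceeded MEF in any library. The minus Chir course gave 34, 11, 14, 19 and 39, and 4 of the 6 CiPSC libraries read 0.

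The tropomyosins, which coil along the actin filament, differed from each other. Tpm1, at chr9:67022590-67049406 on the minus strand and also made by many other cells, stood at 11338 in MEF. It stayed high in every course, at 3850, 2038, 1275, 1229, 3850, 4216 and 3638 with all chemicals. Without BrdU it gave 3850, 2634, 2424, 2634, 4512, 5536 and 5536, and without Chir 4974, 3638, 3094, 3426 and 2768. The ranges of the 3 courses overlap. Tpm1 averaged 270.3 ± 109 (SD, n = 6) in CiPSC.

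Tpm2, at chr4:43514711-43523765 on the minus strand, read 2163 in MEF and 216, 90, 64, 50, 102, 110 and 131 in the all chemical course. The minus Brdu course read 474, 381, 520, 488, 1069, 1712 and 1874, with no overlap. The minus Chir course read 275, 168, 210, 214 and 130 and lay between the other courses on each of its days. CiPSC libraries gave 0 to 30.

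Cald1 encodes caldesmon, an actin-binding brake on myosin, of which non-muscle cells make a shorter form, and the table does not separate the forms. Its gene is at chr6:34598500-34775473 on the plus strand. It read 4976 in MEF and fell through the all chemical course, where it read 2635, 1686, 1346, 1072, 1072, 887 and 957. Without BrdU it read 2218, 1797, 2218, 3238, 4976, 3640 and 4218. The courses were close on days 6 and 12 and parted afterwards, by 4.41-fold on day 40. Without Chir it read 1921, 1618, 1106, 1006 and 1180, near the all chemical values. CiPSC retained Cald1 at 463.0 ± 133.9 (SD, n = 6).

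**Figure D2:**
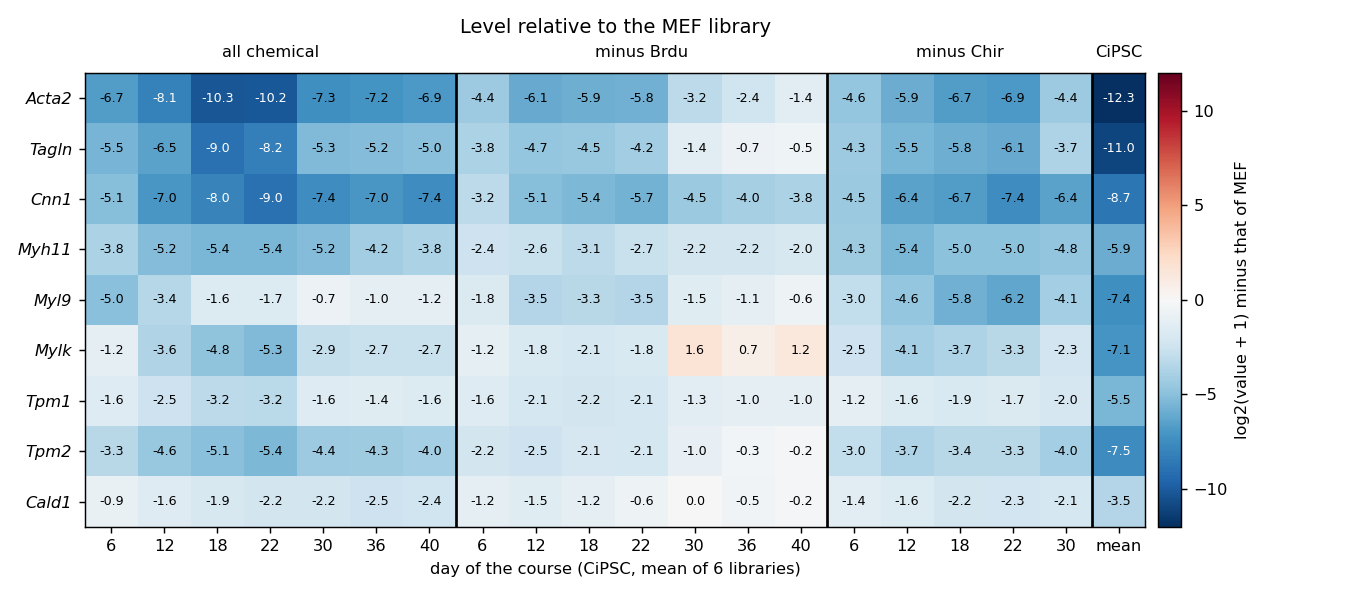
Level of each member relative to MEF, as log2(value + 1) minus that of the MEF library, by day of each course and for the mean of the 6 CiPSC libraries. Blue is below MEF and red above, and Mylk in the late minus Brdu libraries holds the red cells. The entries for Acta2 are approximate because its MEF value is at the ceiling.

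The first comparison asks which members differed when BrdU was left out. Of the 9 members, 8 were higher in the minus Brdu course and none was lower, where 21.1% of all genes tested were called higher and 42.6% in either direction. The largest differences were for the actin Acta2, by 3.94 ± 0.40 (SE, adjusted p = 0.000474), and for Tagln, by 3.57 ± 0.39 (adjusted p = 0.000586). Tpm2 was higher by 2.95 ± 0.32 (adjusted p = 0.00056), Mylk by 2.82 ± 0.48 (adjusted p = 0.00247) and Cnn1 by 2.76 ± 0.32 (adjusted p = 0.000679). Myh11 was higher by 2.24 ± 0.27 (adjusted p = 0.000755). Cnn1 and Myh11 read below the library medians of 76 to 77 in both courses. Under alternative settings their differences ran from 1.79 to 2.91 and from 1.78 to 2.39. Among the 8 called, the 2 abundant in many cell types differed least, Cald1 by 1.22 ± 0.33 (adjusted p = 0.0158) and Tpm1 by 0.52 ± 0.16 (adjusted p = 0.0276). Myl9 was not called, at -0.09 ± 0.53 (adjusted p = 0.907).

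Over the 9 members the median difference was 2.76, against 0.02 over all genes tested. Acta2, Tagln, Cnn1, Myh11 and Tpm2 were higher on each of the 7 days, as were 15.7% of all genes. Acta2, Tagln, Myh11 and Tpm2 did not overlap between courses, as was the case, with the minus Brdu course higher, for 4.21% of genes. The call for Tpm1 was lost without day as a block (adjusted p = 0.23), when any of days 18, 22, 36 or 40 was left out (0.0502 to 0.0791) and with days 6 to 30 alone (0.1). With those 5 days alone the call for Cald1 was lost as well (adjusted p = 0.128).

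**Figure D3:**
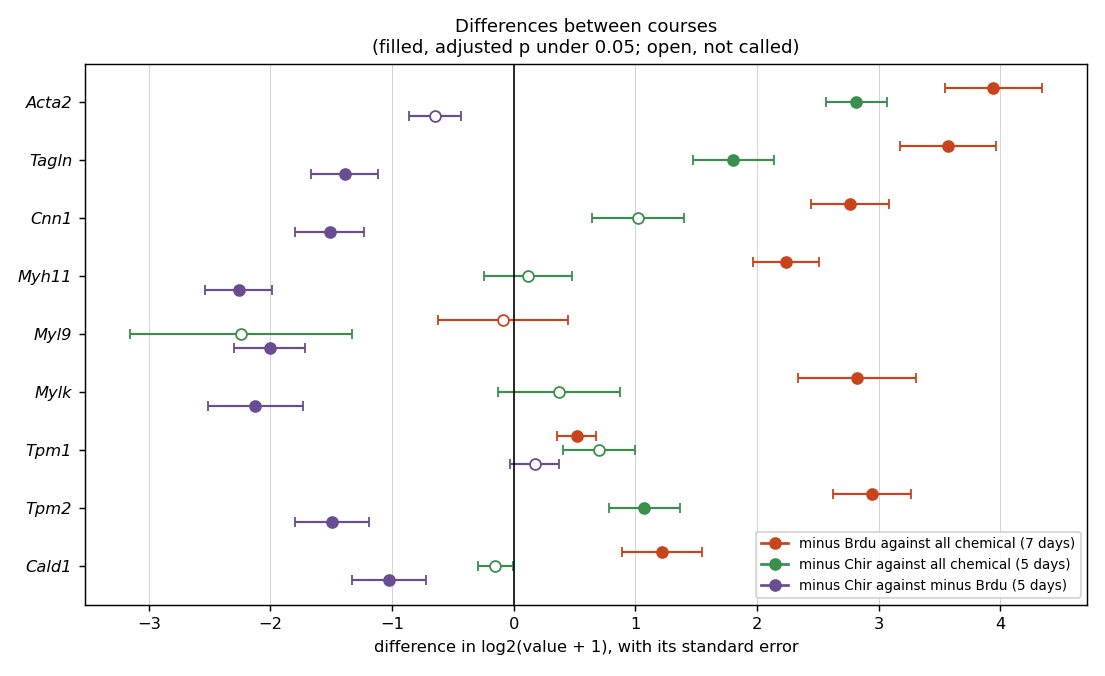
Difference between courses in log2(value + 1) for each member, with its standard error, for minus Brdu against all chemical (7 days), minus Chir against all chemical (5 days) and minus Chir against minus Brdu (5 days). Filled points are called at an adjusted p below 0.05, and 8 of the 9 points for minus Brdu against all chemical are filled and to the right of 0.

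Whether the difference between these courses itself changed with time was tested in 2 ways. The difference on days 30 to 40 was set against that on days 6 to 22, and the slopes over days 6 to 40 were compared. By both, only Cald1 was called among the members. Its difference was larger late by 1.59 ± 0.40 (adjusted p = 0.034, where 13.6% of genes were called in either direction), and its slope was steeper without BrdU by 0.77 ± 0.13 per 10 days (adjusted p = 0.00353, where 11.5% of genes were called in either direction). The late increase for Cald1 was not called when any one of days 12, 18, 30, 36 or 40 was left out or when the variance model had no intensity trend (adjusted p = 0.0677). Mylk and Tpm2 joined it when day 22 was left out, with adjusted p of 0.0461 and 0.0401, and Mylk also with a pseudocount of 5 (adjusted p = 0.0487). Tpm2 had a slope difference of 0.75 ± 0.24 that was not called (adjusted p = 0.06).

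The higher levels after day 22 were described by setting days 30 to 40 against days 12 to 22 within a course. That split was chosen after the values had been seen, so its adjusted p-values describe the rise and are no independent test of it. In the all chemical course 4 members were higher late, where 6.81% of all genes were. Tagln was higher by 2.71 ± 0.59 (adjusted p = 0.0227), Acta2 by 2.36 ± 0.56 (adjusted p = 0.0313), Mylk by 1.82 ± 0.50 (adjusted p = 0.0491) and Tpm1 by 1.40 ± 0.23 (adjusted p = 0.00882). Cald1 went the other way without being called, at -0.47 ± 0.20 (adjusted p = 0.156). Only Tpm1 was still called when any one of days 18, 22, 30, 36 or 40 was left out.

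In the minus Brdu course 7 members were higher late, where 8.99% of genes were. Tagln was higher by 3.61 ± 0.25 (adjusted p = 0.000435), Acta2 by 3.59 ± 0.41 (adjusted p = 0.00212) and Mylk by 3.08 ± 0.25 (adjusted p = 0.000666). Myl9 was higher by 2.40 ± 0.23, Tpm2 by 1.71 ± 0.24, Cnn1 by 1.32 ± 0.33 and Tpm1 by 1.01 ± 0.14, with adjusted p of 0.00113, 0.0044, 0.0361 and 0.00446. Myh11 (0.70 ± 0.24, adjusted p = 0.0926) and Cald1 (0.85 ± 0.24, adjusted p = 0.052) were not called. The call for Cnn1 was lost when day 18, 22, 36 or 40 was left out.

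A straight line through MEF and the days of a course described few members. Only Cald1 fell along the all chemical course, by 0.55 ± 0.10 per 10 days (adjusted p = 0.00716), where 16.7% of genes were called in either direction. No member was called along the minus Brdu course by limma, where 0.875% of genes were, and none of the 9 had an unadjusted p below 0.05. That result depends on the MEF library. Without MEF, 2 members were called along the minus Brdu course, where the count of all genes called rose from 139 to 1095. None was called along the minus Chir course, where 0.200% of genes were, although 5 had an unadjusted p below 0.05 (Cnn1, Myl9, Tpm1, Tpm2 and Cald1, all with falling slopes).

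Leaving out Chir gave a smaller set of differences from the all chemical course, over the 5 shared days. Acta2 was higher by 2.82 ± 0.25 (adjusted p = 0.00488), Tagln by 1.80 ± 0.33 (adjusted p = 0.0151) and Tpm2 by 1.07 ± 0.29 (adjusted p = 0.0353). These were the 3 members called, all higher, where 13.5% of all genes were called higher. Cnn1 was higher on all 5 days without being called, by 1.02 ± 0.38 (adjusted p = 0.0818, and 0.0324 with no intensity trend). Myl9 was lower on 4 of 5 days without being called, by -2.24 ± 0.91 (adjusted p = 0.102), and was called without day 6, at -3.32 (adjusted p = 0.0111). The other 4 members had differences from -0.15 to 0.70. Tagln lost its call when day 18 or day 22 was left out (and without day as a block, adjusted p = 0.0936), Tpm2 when day 12, 18 or 22 was or the variance model had no intensity trend (adjusted p = 0.0596), and without day 18 only 25 genes of the whole table were called.

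Set against each other over the same 5 days, the course without Chir was lower than the course without BrdU for 7 members, where 15.2% of genes were lower. Myh11 was lower by -2.26 ± 0.28 (adjusted p = 0.00154), Mylk by -2.12 ± 0.39 (adjusted p = 0.00693) and Tpm2 by -1.50 ± 0.31 (adjusted p = 0.0104). For these 3 genes the courses did not overlap, as was the case for 9.16% of genes. Myl9 was lower by -2.01 ± 0.29 (adjusted p = 0.00291), Cnn1 by -1.51 ± 0.28 (adjusted p = 0.0074), Tagln by -1.39 ± 0.27 (adjusted p = 0.00919) and Cald1 by -1.02 ± 0.30 (adjusted p = 0.0388). Acta2 was not called, at -0.65 ± 0.21 (adjusted p = 0.0542, and 0.0206 without day 12), nor was Tpm1, at 0.17 ± 0.20 (adjusted p = 0.538). The 3 comparisons between courses share libraries and are not independent of each other. The call for Cald1 was lost without day 18, 22 or 30 and with no intensity trend (adjusted p = 0.0677), and those for Tagln and Cnn1 when day was not a block (adjusted p of 0.13 and 0.0837).

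Against CiPSC, MEF was higher for all 9 members, where 17.9% of genes were higher. The difference ran from 3.48 ± 0.48 for Cald1 (adjusted p = 0.00253) and 5.46 ± 0.46 for Tpm1 (adjusted p = 0.00038) to 12.28 ± 1.85 for Acta2 (adjusted p = 0.00364). The day 40 library of the minus Brdu course was also higher for all 9, where 41.5% of genes were called in either direction, from 3.25 ± 0.48 for Cald1 to 10.87 ± 1.85 for Acta2. The day 40 all chemical library was higher for 3, where 12.7% of genes were higher. Those were Myl9 by 6.19 ± 0.93 (adjusted p = 0.00655), Mylk by 4.40 ± 0.96 (adjusted p = 0.022) and Tpm1 by 3.82 ± 0.46 (adjusted p = 0.00309). MEF and each day 40 sample are single libraries, assumed in the fit to vary as CiPSC does. Acta2, Tagln, Cnn1, Tpm2 and Mylk are listed at 0 in 2, 4, 5, 1 and 4 CiPSC libraries, so the size of their differences depends on the value added before taking logs.

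How alike the 9 profiles were is described by correlations over the 20 libraries of MEF and the courses, which share the time axis and a single starting library. Each member was set against the mean of the other 8. Pearson's r was 0.957 for Tagln, 0.929 for Acta2, 0.928 for Tpm2, 0.913 for Myh11, 0.904 for Mylk and 0.886 for Cnn1. Cald1 (0.827) and Tpm1 (0.800) were somewhat lower. Myl9 stood at 0.368, and at 0.236 without MEF. Over the 20 libraries log2 levels spanned 10.25 for Acta2 but 2.49 for Cald1.

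Markers of primitive endoderm, an extraembryonic lineage known from chemical reprogramming, were read beside Myl9 in the all chemical course. The summed level of 6 such genes, among them Gata6, was 645, 4305, 7711, 11312, 7383, 6750 and 4611 by day. In the minus Brdu course it stayed between 375 and 963 and in the minus Chir course between 672 and 855. All 6 were lower without BrdU, where 21.5% of all genes were. Their part in the Myl9 values was not tested.

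Outside the 9, the genes whose profiles were most like the members' mean were sought among 12443 genes with a mean of at least 20, by Pearson's r over the same 20 libraries. The 10 highest were Sfxn3 (0.955), the collagen chain Col1a1 (0.954), Tgfb1i1 (0.952), C1qtnf2 (0.945), Eef2k (0.944), Fbln2 (0.942), Actg2 (0.939), Rcan2 (0.939), Lmod1 (0.939) and Lbh (0.937). Actg2 is the enteric smooth muscle actin and Lmod1 a smooth muscle leiomodin that nucleates actin filaments. Without MEF, 4 of these 10 stayed among the 10 highest (Tgfb1i1, Col1a1, C1qtnf2 and Sfxn3), and Actg2 and Lmod1 did not. Col1a1 is at the ceiling in MEF and 3 minus Brdu libraries, and Fbln2 in MEF. For Acta2 alone the 5 highest were Podn, a row whose name has the form of a date (Sep-07), Nfix, Actg2 and Lbh, with r from 0.934 to 0.949.

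In the wider actin and myosin machinery both directions occurred. Of 27 other actin, myosin and cytoskeletal genes, 12 were higher and 4 lower in the minus Brdu course than in the all chemical course, where 21.1% of all genes were higher and 21.5% lower, with a median difference of 0.31. The called genes with the smallest adjusted p were Actg2 (4.34 higher, adjusted p = 0.00049), Ppp1r12a (-1.10, 0.000759), Csrp1 (1.12, 0.00129) and Smtn (-1.04, 0.00139). Actg2 read 594 in MEF, 11, 5, 1, 0, 1, 7 and 12 with all chemicals and 64, 53, 43, 60, 118, 143 and 258 without BrdU. Like Acta2 and Tagln, it did not overlap between those courses. Ppp1r12a encodes the targeting subunit of myosin phosphatase, which opposes the kinase, and Smtn encodes smoothelin, a smooth muscle marker that here was lower without BrdU on all 7 days. The ubiquitous actin Actb lay between 2419 and 4508 in MEF and all courses.

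**Figure D4:**
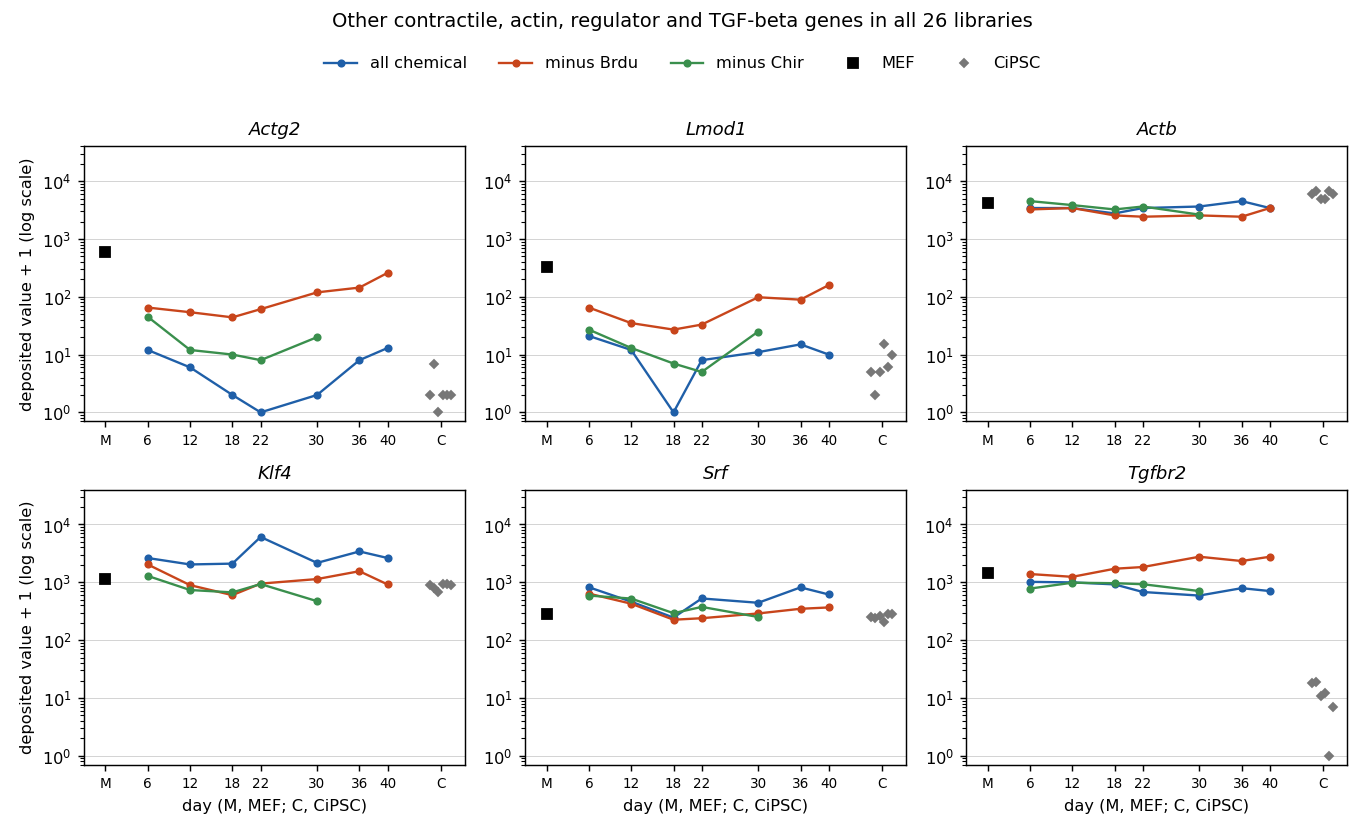
Deposited value plus 1 (log axis) of 6 other genes by day, with symbols for MEF, the 3 courses and CiPSC as in the plot of the 9 members. Actg2 and Lmod1 separate the minus Brdu from the all chemical course in each library, Actb stays between 2419 and 4508 in MEF and the courses, and Klf4 is lower without BrdU on all 7 days.

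Against the all chemical course, the minus Chir course had 7 of these 27 genes higher and 4 lower, where 26.5% of all genes were called in either direction. Its smallest adjusted p values were those of Myl6 (1.31 higher, 0.0101), Ppp1r12a (-1.15, 0.0122), Myl12a (1.09 higher, 0.0132) and Myh10 (-0.77, 0.0152). Myl6 and Myl12a are light chains of non-muscle and smooth muscle myosin. Between the minus Chir and minus Brdu courses, 5 were higher and 7 lower in the former, where 32.2% of all genes were called in either direction. The muscle intermediate filament gene Des had the smallest adjusted p there (3.46 higher, 0.000153), at 312 to 479 without Chir against 21 to 50 without BrdU on the same days.

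For the SRF and myocardin-family regulators, transcript levels were read, which do not measure the activity of these factors. Of 11 in the table (Myocd, for myocardin itself, is not among its rows), none was higher and 5 were lower in the minus Brdu course, where 21.5% of all genes were lower. Klf5 was lower by -2.04 (adjusted p = 0.00158), Klf4, a known repressor of smooth muscle genes and a pluripotency factor, by -1.38 (0.00271), Gata6 by -1.94 (0.00421) and Elk4, an SRF partner, by -0.82 (0.00798). Srf was lower on all 7 days by -0.62 (0.0134). Mkl1, of the myocardin family, was not called, at 248 to 326 without BrdU and 125 to 350 with all chemicals. Klf4 read 2033 to 6078 with all chemicals and 598 to 2032 without BrdU, so the ranges all but touch at 2033 and 2032. In the minus Chir course 7 were lower than with all chemicals, where 12.9% of all genes were lower, led by Klf4 (-1.81, adjusted p = 0.00982), Klf5 (-2.76, 0.0101), Tead1 (-1.14, 0.016) and Mkl2 (-0.83, 0.0181), and none was higher.

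In the TGF-beta pathway 6 of 14 genes were higher and 2 lower without BrdU, against 21.1% and 21.5% of all genes. The receptor Tgfbr2 was higher by 1.27 (adjusted p = 0.00369), the ligand Tgfb2 by 1.40 (0.00693), the latent binding protein Ltbp2 by 1.34 (0.00715) and the coreceptor Tgfbr3 by 0.85 (0.00835). Tgfbr2 read 588 to 1016 with all chemicals and 1241 to 2764 without BrdU, without overlap. Without Chir only the ligand Tgfb1 was higher than with all chemicals (1.60, adjusted p = 0.0177), while Tgfbr3 (-0.96, 0.00982) and Smad4 (-0.51, 0.0354) were lower, against 13.5% of all genes higher and 12.9% lower.

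Markers of other cells that carry contractile genes were read beside these results. Of 12 fibroblast genes, 9 were higher without BrdU and none lower, against 21.1% and 21.5% of all genes, with a median difference of 2.08, led by Lum (3.14 higher, adjusted p = 0.000345), Fap (1.63, 0.0011), Col1a2 (2.10, 0.00111) and Twist2 (2.70, 0.00144). Their summed level was 9955 to 51920 in the all chemical course, 43698 to 84182 without BrdU, 10228 to 35941 without Chir and 75557 in MEF. Col1a2 was at the ceiling in 5 of the 7 minus Brdu libraries. Between the minus Chir and minus Brdu courses, 10 of the 12 were lower in the former and 1 higher, where 15.2% of all genes were lower. The part of these cells in the members' values was not tested.

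The counts in these further lists read against 21.1% of all genes higher and 21.5% lower without BrdU. Of 8 pericyte and mural cell genes, 4 were higher and 2 lower without BrdU, and their summed level overlapped, at 775 to 1814 against 1283 to 1831. The pericyte gene Cspg4 was at 0 to 8 in all courses and 358 in MEF. In the same list Pdgfrb read 394 to 946 without BrdU against 52 to 819 with all chemicals, and Anpep 134 to 390 against 206 to 756. Of 13 skeletal and cardiac muscle genes in the table, 1 was higher and 2 lower without BrdU, and they summed to 52 to 243 there against 75 to 245 with all chemicals. The skeletal muscle regulator Myod1 was at 0 in every minus Brdu library and at 22, 44, 150, 140 and 0 in the minus Chir course. Of the 7 endothelial genes listed, 1 was higher and 2 were lower without BrdU, and they summed to 327 to 583 there and 272 to 574 with all chemicals. Of 6 macrophage genes tested 2 were higher and 1 was lower, and the list summed to 79 to 215 and 129 to 356. Of 8 pluripotency genes 6 were lower without BrdU and none higher, and they summed to 18 to 39 against 87 to 4959. The part of these cells in the members' values was not tested either.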

How the data were processed

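Per the labels' protocols, TRIzol RNA went into 26 TruSeq RNA libraries, sequenced on the NextSeq 500. Tools listed in the submitters' processing notes are RSEM, Bowtie2 and bcl2fastq, on build mm10, without versions. The authors deposited 1 table of whole numbers, treated here as a score: its name says CPM, but every library sums to between 4143561 and 4162600 with a shared maximum, so each was put on 1 common distribution. Depth and read counts are not given in the sources used here, so no counting interval is given.

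Values were taken as log2(value + 1). Genes averaging 1 or more across the fitted libraries were tested with limma 3.58.1 (R 4.3.3, intensity trend, two-sided, Benjamini-Hochberg over all genes). Day was a block in comparisons between courses, because the labels give each course 1 library a day. With 1 library a day, p-values measure the spread over days, which may be technical in part. The code was tested on simulated data. The members and lists were chosen with earlier results of these data known. All 9 members are given. From the actin, SRF, TGF-beta and fibroblast lists, the genes named are the called ones with the smallest adjusted p, at most 4 per comparison. The same holds for the pericyte list in the minus Chir course, and the other marker lists are given as counts or sums. Srf, Mkl1, Actb, Cspg4, Pdgfrb, Anpep and Myod1 were chosen after their values were seen, and Acta1 and Actc1 lie outside that rule too. Marker lists cover skeletal and cardiac muscle, pericyte and mural, endothelial, macrophage, fibroblast, pluripotency and primitive endoderm cells. Positions are from GENCODE M21. Alternatives changed the pseudocount, filter, scaling, variance trend, block, libraries fitted and days. One other fixed gene list is not reported here.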

Additional observations from a re-analysis of the deposited data

Results flagged for a closer look

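Within groups of 5 to 7 libraries, 8 of 36 member groups held a library set apart from the others by Dixon's criterion. Its chance rate of about 1 of 20 groups assumes normally distributed replicates. The course groups are series of different days, and most CiPSC values of Cnn1 and Mylk lie at the lowest value a gene can have. The count of 8 therefore cannot be read against that rate. Day 6 stood high for Cnn1 in the all chemical course (14) and in the minus Chir course (22), and for Mylk in the all chemical course (86). These are the first days after MEF, where the same genes were at 510 and 200. Among CiPSC libraries, number 5 was high for Acta2 (26) and Tagln (17), number 2 for Tpm1 (491) and Mylk (4), and number 3 for Cnn1 (3).

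For Cald1, the difference between the minus Brdu and all chemical courses was not the same early and late: it moved by 1.59 in log2(value + 1) between days 30 to 40 and days 6 to 22 in the interaction test. Its slope per 10 days also differed between the minus Brdu and all chemical courses, by 0.77.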

How the results depend on the processing

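Over 1403 values of members under an alternative, 1300 kept their direction and side of the threshold, 48 lost a call, 27 gained one and 28 turned direction. The main limits are single libraries per day, coarse steps at high values and an Acta2 level in MEF that is at the ceiling and not resolved. Leaving out 1 day at a time, the number of members called was 1 to 4 for minus Chir against all chemical (3 with all days), 0 to 3 for the period difference (1), 1 to 2 for the slope difference (1), 0 to 1 for the minus Chir trend (0) and 1 to 5 for late against middle days in the all chemical course (4). Leaving out CiPSC 5 gave 5 members against the day 40 all chemical library, where the main count was 3 and the other omissions gave 3 or 4. A pseudocount of 5 gave 6 there and 2 for the period difference. No intensity trend gave 0 for the period difference and 2 for late against middle days in the all chemical course. One fit over the 19 course libraries called 6 members for minus Chir against all chemical, adding Cnn1 (1.14), Tpm1 (0.69) and Myl9 (-2.17), and put Cald1 at 0.023. Without MEF, 2 members were called along the all chemical course, 2 along the minus Brdu course, and 4 of the 10 most alike genes were shared. Slopes then turned direction in the all chemical course for Acta2 (0.29), Tagln (0.50), Myh11 (0.14) and Tpm1 (0.23), in the minus Brdu course for Cnn1 (0.10), Myh11 (0.20) and Tpm1 (0.29), and in the minus Chir course for Tagln (0.16) and Mylk (0.21). Centring libraries turned the period difference to -0.013 for Myh11 and -0.019 for Myl9.

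Differences that turned direction when 1 day was left out ran from -0.64 to 0.20 for Myl9 in minus Brdu against all chemical and from -0.037 to 0.79 for Mylk in minus Chir against all chemical. The period difference ran from -0.34 to 0.24 for Myh11 and from -0.56 to 1.13 for Myl9, and the slope difference from -0.22 to 0.22 for Myh11, -0.84 to 0.48 for Myl9 and -0.083 to 0.10 for Tpm1. The minus Brdu slope ran from -0.24 to 0.21 for Acta2 and from -0.13 to 0.16 for Myl9. None of these was called with all days.

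Without the replicate block (day not in the fit) the calls lost were Tpm1 in minus Brdu against all chemical (adjusted p = 0.23), Tagln in minus Chir against all chemical (0.0936), and Tagln (0.13) and Cnn1 (0.0837) in minus Chir against minus Brdu, and no other call of a member changed. The counts of all genes called moved by over 1.5 times as follows. For minus Brdu against all chemical the count was 6946, and 3735 with days 6 to 30 only. For minus Chir against all chemical it was 4298, and 25, 226 and 2143 without days 18, 22 and 30, and 6895 in the 19-library fit. For minus Chir against minus Brdu it was 5176, and 2772 and 3141 without days 18 and 22. Leaving out a day took it from 2218 to as few as 713 for the period difference, from 1875 to 680 for the slope difference, from 2729 to 1377 for the all chemical trend, from 2367 to 892 and from 2707 to 1174 for late against middle days in the all chemical and minus Brdu courses. For the minus Brdu trend it was 139, 0 without day 6 or 36 and 1095 without MEF, and for the minus Chir trend 32, 0 with no intensity trend and 142 without day 30. The causes were not tested.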

Other observations

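Mural cell genes, which mark the pericytes and smooth muscle around vessels, were divided in the minus Chir course. Of 8 such genes, 3 were higher and 1 lower than in the all chemical course, where 26.5% of all genes were called in either direction. Rgs5, a pericyte regulator of G protein signalling, read 904, 1348, 1688, 1762 and 169 on days 6 to 30 without Chir and 116, 142, 159, 78 and 20 with all chemicals, a difference of 3.42 in log2(value + 1) (limma, adjusted p = 0.00285). The adhesion gene Mcam was higher by 2.29 (adjusted p = 0.00856) and the potassium channel gene Kcnj8 by 2.11 (adjusted p = 0.0123). Pdgfrb, the receptor that pericytes need for recruitment, was lower by -1.31 (adjusted p = 0.0221), at 168, 84, 72, 44 and 30 without Chir against 819, 348, 114, 78 and 52. The smooth muscle heavy chain Myh11 lay between 4 and 10 in those same minus Chir libraries.

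The skeletal muscle actin Acta1, unlike Acta2 and Actg2, was lower without BrdU than with all chemicals on days 18 to 40. It read 190 in MEF, 2, 2, 13, 22, 26, 60 and 34 in the all chemical course and 7, 4, 7, 12, 5, 5 and 3 without BrdU. The cardiac actin Actc1 was at 0 in MEF and at 46 in the minus Brdu library of day 6, and at most 22 in any other library of the courses.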
